A study of Homo sapiens with 12 samples.

Results

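The transcripts recovered with METTL16 and with eIF3b from HepG2 cells, an established human liver cancer line, were compared gene by gene. METTL16 is an RNA methyltransferase that places N6-methyladenosine (m6A) on RNA, and eIF3b is a core subunit of eukaryotic translation initiation factor 3 (eIF3), the complex that loads mRNA onto the small ribosomal subunit. In RNA immunoprecipitation followed by sequencing (RIP-seq), the RNA held by a protein is pulled down with an antibody, sequenced, and set against the input lysate, and a stretch of exon richer in the pull-down than in the input is called a peak. The contrast sets held genes with a peak in both replicates of one protein and in no replicate of the other. The 4 lists named 10001 genes in all. Of these, 144 were METTL16-only and 1064 were eIF3b-only, so that 1208 genes are described as members. A further 3945 genes carried a peak in all 4 lists, and 10830 genes did so in any of the 6 lists of the series.

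The series has 12 samples, 6 RIP libraries and 6 inputs, with 2 replicates for each of METTL16, eIF3a and eIF3b. Per the labels, HepG2 cells stably overexpressed 3xFlag-METTL16, carried on the vector pmiRNA1, or 3xFlag-eIF3b, carried on pSIN4, and per the study's methods RNA was cross-linked to protein by ultraviolet light ahead of lysis. Both proteins were pulled down with a Flag antibody, so the antibody was shared and the overexpressed protein differed between the groups. No treatment or time course was part of the design, and none of the 12 samples was a pull-down with a control antibody. Recovery that does not depend on the tagged protein therefore cannot be told apart from binding. A peak rests on the tagged, overexpressed protein and not on its natural level, and in these bulk samples fewer cells with a bound transcript and less bound RNA per cell cannot be told apart.

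An mRNA has a 5′ untranslated region (UTR), a coding sequence and a 3′ UTR. eIF3 is known for its contacts with mRNA during initiation, and with ribosomes in the early part of the coding sequence. METTL16 is known for methylating the U6 small nuclear RNA and hairpins in the 3′ UTR of MAT2A, which encodes the enzyme that makes S-adenosylmethionine, within the sequence ACAGAGA or a close relative.

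The 4 lists held 13199 and 13136 peaks in 5829 and 6337 genes for METTL16 replicates 1 and 2, and 20832 and 20027 peaks in 8063 and 7570 genes for eIF3b. The eIF3b lists were therefore longer, and the median gene had 447 and 392 summed peak bases in them against 301 and 301 for METTL16. No read counts were used, so the depth behind a peak is unknown, and whether each list was called against its own input is not given in the sources used here. Peaks were present in all 4 lists on the hepatocyte genes HNF4A, FOXA2, APOA1, APOB, SERPINA1 and KRT18. AFP had a peak in both METTL16 lists and neither eIF3b list, ALB had one in METTL16 replicate 2 alone, and TTR was in no list. Of the 7 markers of leukocytes, fibroblasts and endothelial cells examined, PTPRC had 61 bases of peak in METTL16 replicate 1, PECAM1 had 301 bases in each eIF3b list, and the other 5 had none. METTL16 itself carried 1052 and 1263 bases of peak in its own RIP and 902 and 1173 in that of eIF3b, and EIF3B carried 839 and 1290 against 1381 and 1501. The transcripts of both tagged proteins were thus in all 4 lists, with a highest fold over input on METTL16 of 67.5 and 38.1 for METTL16 and 30.5 and 16.9 for eIF3b. MAT2A had 865 and 806 bases for METTL16 and 1400 and 1935 for eIF3b.

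To show the peaks of highest fold in each set, 4 stretches per set are printed, chosen for their fold and not as typical peaks. They are the bases shared by the peaks of both replicates, in genes with the highest of the smaller fold, where both peaks were a single coding block and shared 60 to 300 bases. They are written 5′ to 3′ on the transcript strand of GRCh38, and capitals mark runs of at least 6 bases that are all G or C. The METTL16-only peaks were these.
LINGO1, chr15:77615566-77615715, minus strand: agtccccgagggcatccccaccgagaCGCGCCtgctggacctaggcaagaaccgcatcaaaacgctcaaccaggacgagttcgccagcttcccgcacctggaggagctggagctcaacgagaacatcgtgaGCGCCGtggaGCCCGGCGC
ARTN, chr1:43936373-43936552, plus strand: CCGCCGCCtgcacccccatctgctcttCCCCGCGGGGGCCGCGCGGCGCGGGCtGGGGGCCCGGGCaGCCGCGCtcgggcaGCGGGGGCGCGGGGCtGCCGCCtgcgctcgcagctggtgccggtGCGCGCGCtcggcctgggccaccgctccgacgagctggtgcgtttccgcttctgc
GRIN2C, chr17:74843247-74843426, minus strand: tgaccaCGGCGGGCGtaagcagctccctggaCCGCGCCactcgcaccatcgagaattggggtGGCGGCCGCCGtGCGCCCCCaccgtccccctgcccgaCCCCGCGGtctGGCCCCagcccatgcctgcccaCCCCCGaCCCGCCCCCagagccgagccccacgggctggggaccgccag
CACNA1B, chr9:137877969-137878148, plus strand: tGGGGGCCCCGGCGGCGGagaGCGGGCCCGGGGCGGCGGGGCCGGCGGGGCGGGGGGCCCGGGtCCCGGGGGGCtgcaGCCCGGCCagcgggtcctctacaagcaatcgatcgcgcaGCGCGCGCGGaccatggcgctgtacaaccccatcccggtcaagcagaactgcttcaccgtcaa
The eIF3b-only peaks chosen by the same rule were these.
RRAGC, chr1:38859524-38859644, minus strand: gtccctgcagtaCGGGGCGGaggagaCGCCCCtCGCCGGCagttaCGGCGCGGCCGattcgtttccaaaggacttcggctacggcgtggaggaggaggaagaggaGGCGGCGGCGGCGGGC
AGAP5, chr10:73675832-73675952, minus strand: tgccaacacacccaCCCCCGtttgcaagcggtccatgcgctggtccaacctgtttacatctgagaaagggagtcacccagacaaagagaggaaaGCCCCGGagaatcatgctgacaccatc
GPRASP1, chrX:102656413-102656563, plus strand: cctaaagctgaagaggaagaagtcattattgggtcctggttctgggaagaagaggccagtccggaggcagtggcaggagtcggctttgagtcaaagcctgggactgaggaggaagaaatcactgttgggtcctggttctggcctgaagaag
ZNF594, chr17:5183066-5183365, minus strand: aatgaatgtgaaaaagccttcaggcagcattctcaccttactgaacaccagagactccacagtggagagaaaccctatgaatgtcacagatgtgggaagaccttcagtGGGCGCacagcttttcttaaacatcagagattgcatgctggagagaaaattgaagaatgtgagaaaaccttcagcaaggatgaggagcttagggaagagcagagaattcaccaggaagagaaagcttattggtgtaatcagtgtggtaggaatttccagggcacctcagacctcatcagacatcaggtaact
LINGO1 encodes a neuronal receptor component, ARTN the growth factor artemin, GRIN2C a subunit of the NMDA glutamate receptor, and CACNA1B the pore of the N-type calcium channel. Their printed stretches were 65.3%, 81.7%, 77.2% and 76.7% G or C, and the longest unbroken run reached 42 bases in CACNA1B and 26 bases in ARTN. RRAGC encodes a Rag GTPase of the mTORC1 pathway, AGAP5 a gene of a family with near-identical copies, GPRASP1 a protein that sorts G protein-coupled receptors, and ZNF594 a zinc finger protein. Their stretches were 71.1%, 55.4%, 53.6% and 45% G or C, and GPRASP1 had no such run. The LINGO1 stretch lay at coding bases 192 to 341 of 1860, in the second of 2 exons, and the CACNA1B stretch at coding bases 36 to 215 of 7017, in exon 1. None of the 8 held ACAGAGA.

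The METTL16-only set was small, at 1.44% of the genes in any list, and the eIF3b-only set was 10.6%. The commonest pattern was a peak in all 4 lists, at 39.4%. Many more genes missed a set by a single list. Of the genes in both METTL16 lists, 434 were also in eIF3b replicate 1 alone and 89 in eIF3b replicate 2 alone. Among the genes in both eIF3b lists, 867 were also in METTL16 replicate 1 alone and 617 in METTL16 replicate 2 alone. These genes had less peak sequence there than the median gene of the list. The 434 and 89 genes had a median of 239 and 182 bases in the eIF3b list that held them, against 447 and 392 over all its genes. The 867 and 617 genes had 180 and 151 bases in the METTL16 list, against 301 and 301. Members of the sets had similar amounts, with medians of 150 and 181 bases in METTL16-only genes and 237 and 240 in eIF3b-only genes. The peaks that kept genes out were thus about as large as those that define the sets.

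**Figure D1:**
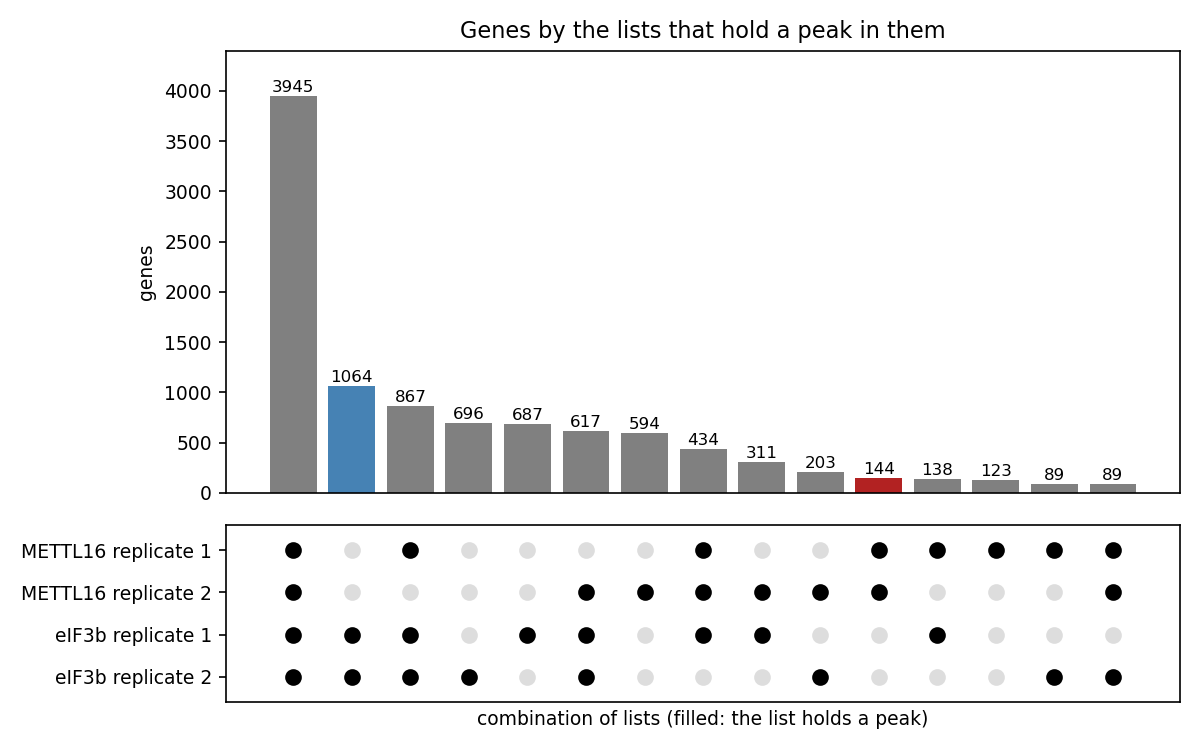
Number of genes (vertical axis) for each combination of the 4 lists that hold a peak in the gene, shown by filled circles below each bar. The 144 METTL16-only genes are in red, the 1064 eIF3b-only genes in blue, and all other combinations in grey.

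Set size followed list length. When every list was cut to the 13136 peaks of the shortest by p-value, 375 genes were METTL16-only and 393 eIF3b-only, so the imbalance between the sets was not present in lists of equal length. With the 5000 best peaks per list the sets held 284 and 324 genes.

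Peaks on METTL16-only genes were short and mostly single. In replicate 1 the summed bases per gene ran from 59 to 390 with a median of 150, and in replicate 2 from 60 to 1185 with a median of 181. A single peak made up the gene's signal in 92.4% and 81.2% of the 144 genes. The eIF3b-only genes had medians of 237 and 240 bases, ranges of 60 to 4845 and 60 to 4712, and a single peak in 57.5% and 51.1%. In shared genes the medians were 452 and 477 bases for METTL16 and 868 and 661 for eIF3b, so both sets held less peak sequence per gene than the shared genes of the same lists. The median highest fold over input was 3.67 and 4.4 in METTL16-only genes and 4.27 and 4.96 in eIF3b-only genes. At the weak end, the largest adjusted p-value that the peak caller gave to a gene's best peak was 0.0417 and 0.0437 in the first set and 0.0417 and 0.0468 in the second.

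**Figure D2:**
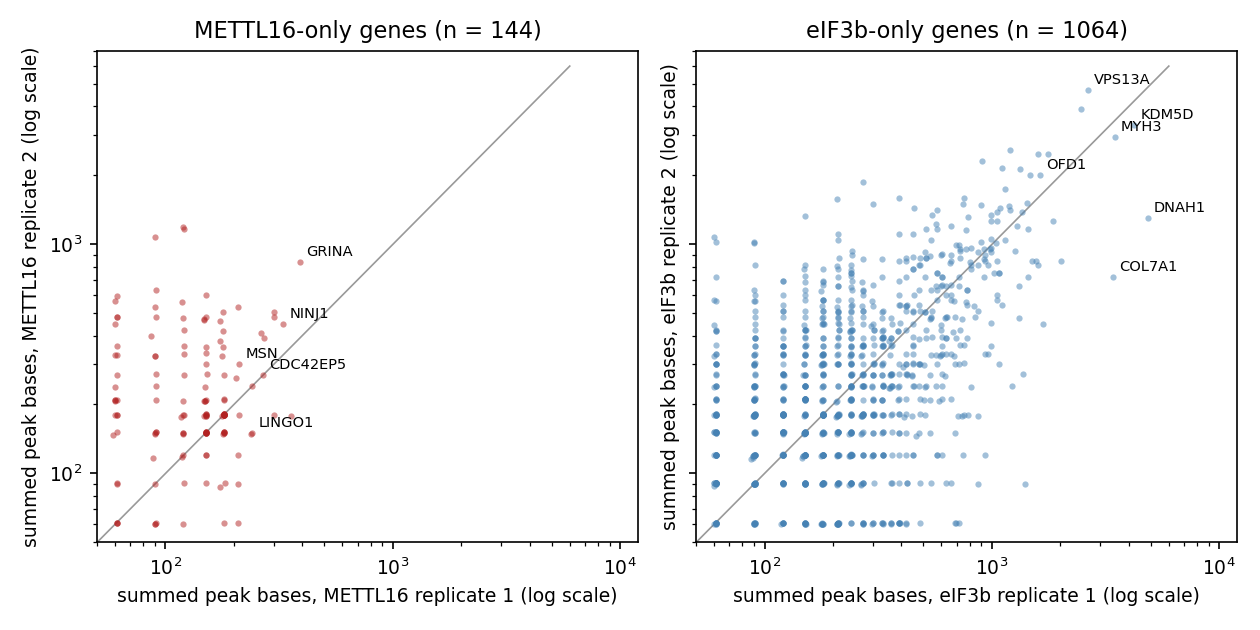
Summed peak bases of each member gene in replicate 1 (horizontal axis, log scale) and replicate 2 (vertical axis, log scale) of the protein that defines its set, with the line of equality in grey. METTL16-only genes stay at or under 390 bases in replicate 1, whereas KDM5D, MYH3 and VPS13A in the eIF3b-only set have 2646 to 4712 bases in each replicate.

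The METTL16-only genes with the most peak sequence had short transcripts and varied functions. GRINA, which encodes a small membrane protein of the BAX inhibitor family, led with 390 and 837 bases. NINJ1, whose product ruptures the plasma membrane in dying cells, had 329 and 449 bases, and the tubulin gene TUBA1A had 300 and 508. MCRIP1 had 300 and 480 bases, and TRMT112, a cofactor shared by several RNA and protein methyltransferases, had 270 and 390. CDC42EP5, a Cdc42 effector, stood out in fold, at 26.5 and 12.7, with 268 bases in each replicate. MYDGF (264 and 410 bases), a secreted growth factor, LACTB (240 and 240), a mitochondrial protein, and MSN (211 and 301), which links actin to the membrane, followed. PRDX2 (208 and 534), a peroxide-removing enzyme, ZNRD1 (204 and 261), a subunit of RNA polymerase I, and AP2S1 (181 and 270), of the clathrin adaptor, completed the 12. Of these 12 transcripts, the longest was MSN at 3960 bases, and no other exceeded 1911 bases.

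The METTL16-only genes with the highest fold were other genes. LINGO1 reached a fold of 181 and 174 over input, ARTN 74.2 and 229, and GRIN2C 46.4 and 202. RAX, a retinal homeobox factor, had 66.2 and 54.8, CACNA1B 38.4 and 39.3, and SHANK1, a scaffold of the postsynaptic density, 30.5 and 69.1. RNF144A, a ubiquitin ligase, had 26.5 and 26.2, and BEND4 25.2 and 38.1. Each of the 8 carried 1 peak of 150 to 240 bases in both replicates. Several of them are known from neurons or from the developing nervous system, and their level in the inputs was not analysed here. Exactly the same high fold recurred on different genes. BEND4 and TLX1 both had 38.1 in replicate 2, and CENPM and HCN2 both had 15.9 in replicate 1 and 28.6 in replicate 2. How many reads such folds rest on is unknown, so a high fold is not read here as strong binding.

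eIF3b-only genes carried more peak sequence per gene, in more peaks. The median width of a single peak was 151 and 151 bases there and 149 and 179 bases in METTL16-only genes. KDM5D, a histone demethylase gene on the Y chromosome, had 4214 and 3316 bases in 6 and 7 peaks, and MYH3, an embryonic muscle myosin, had 3474 and 2937 in 8 and 10 peaks. VPS13A, a lipid transfer protein, had 2646 and 4712 bases, and ANKRD36 had 2466 and 3908. ANKRD36 has close relatives in the genome, so its reads cannot be assigned to it with certainty. NOL8 (1767 and 2483 bases) is a nucleolar protein, OFD1 (1622 and 2007) is needed for cilia, and MIA3 (1592 and 2492) helps to export collagen from the endoplasmic reticulum. ZNF407 had 1475 and 2018 bases, CEP95 1433 and 1523, and PARP14, which modifies proteins with ADP-ribose, 1356 and 1385. ANKRD26, a centriole protein, had 1325 and 2135, and DNAH1, a dynein of motile cilia, 4845 and 1298. By fold, GOLGA6L9 had 37.8 and 35.2, EID3 33 and 38.2, CCDC180 35.7 and 32.3, and CCDC171 33 and 27.9. ZC3H12D, which encodes a ribonuclease, had 33 and 26.4, and COL7A1, the collagen of anchoring fibrils, 28.8 and 25. MYH3 was named by this criterion too, at 82.4 and 25.

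The 2 sets differed in the length of their transcripts. Length was not itself part of the rule, but having a peak went with length. Over the canonical transcripts of GENCODE release 44, METTL16-only genes had a median length of 2062 bases (95% interval over genes 1715 to 2482, n = 140 matched). eIF3b-only genes had a median of 4128 bases (3971 to 4401, n = 1052), shared genes 3795 bases, and all 10001 genes 3492 bases. Every section of the transcript was shorter in METTL16-only genes. The coding sequence had a median of 1038 against 1710 bases, the 3′ UTR 698 against 1710 bases, and the 5′ UTR 102 against 160 bases. The median number of exons was 6 against 10. The genes were divided into 5 classes of 1984 by transcript length. In the shortest class, up to 1946 bases, 3.38% were METTL16-only and 6.75% eIF3b-only. In the longest class, from 6019 bases, the shares were 0.857% and 13.4%. Genes in all 4 lists made up 28% of the shortest and 45.6% of the longest class. The choice of the sets was therefore not independent of length, and the part of this in their difference was not tested.

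**Figure D3:**
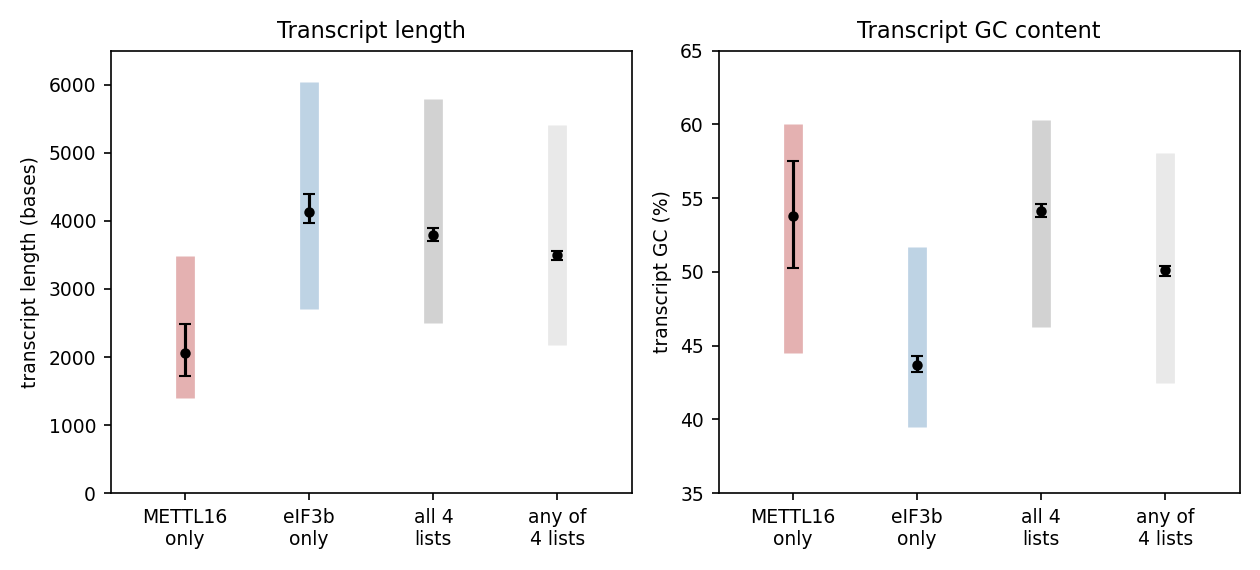
Length in bases (left) and GC content in percent (right) of the canonical transcripts of METTL16-only genes, eIF3b-only genes, genes in all 4 lists and genes in any of the 4 lists. Points are medians with 95% intervals over genes and the wide bars span the interquartile range. METTL16-only transcripts have a median of 2062 bases against 4128 for eIF3b-only, and eIF3b-only transcripts a median GC of 43.7% against 53.8%.

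The sets differed in base composition too, but here it was the eIF3b-only genes that stood away from the rest. Their median transcript GC content was 43.7% (43.2 to 44.3), against 53.8% (50.3 to 57.5) in METTL16-only genes, 54.1% in shared genes and 50.1% over all genes. The share of eIF3b-only genes fell from 18.9% in the lowest of 5 GC classes to 4.69% in the highest. METTL16-only genes made up 0.907% of the lowest and 1.97% of the highest class. Length and GC go together in these transcripts, so each was set out within classes of the other. In the shortest length class, median GC was 56.7% (52.9 to 58.7, n = 67) in METTL16-only genes. It was 52% (50.6 to 54.8, n = 134) in eIF3b-only genes. In the longest class the medians were 43.9% (40.9 to 58, n = 17) and 41.1% (40.1 to 41.6, n = 266). The METTL16-only median was the higher one in each of the 5 length classes, and the intervals overlapped in every class. Within each of the 5 GC classes the METTL16-only median length was below the eIF3b-only one, from 3811 (2651 to 7958, n = 18) against 5143 bases (4760 to 5519) in the lowest class to 1721 (1428 to 2411) against 2195 (1960 to 2584) in the highest. The intervals overlapped in these 2 classes and were apart in the other 3.

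**Figure D4:**
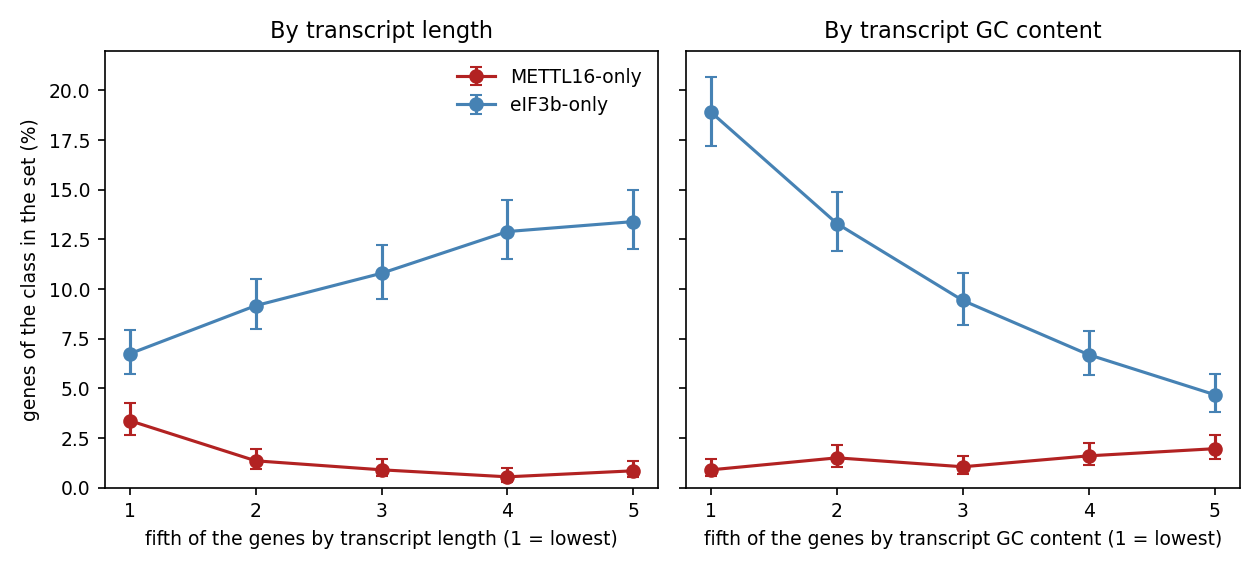
Share of genes in percent (vertical axis) that were METTL16-only (red) or eIF3b-only (blue) in each of 5 equal classes of the genes ordered by transcript length (left) or transcript GC content (right), with 95% Wilson intervals. The eIF3b-only share is 6.75% in the shortest and 13.4% in the longest class, and 18.9% in the lowest and 4.69% in the highest GC class.

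The lists as wholes moved the same way by much less. The median transcript length of all genes in a list was 3666 and 3346 bases for METTL16 and 3670 and 3843 for eIF3b, so that the first lists of the 2 proteins were almost equal. Mean GC of the peaks was 59% and 60.8% for METTL16 and 58.1% and 54.1% for eIF3b. The lists of the 2 proteins did not overlap in either value, and with 2 against 2 the exact two-sided permutation test gave p = 0.333, the smallest it can give. The second eIF3b list had the lowest GC, and it differed more from the first eIF3b list than that list did from METTL16 replicate 1. Whether composition of the libraries sets the GC of the eIF3b-only genes was not tested.

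Within the transcript, both sets had their peaks mainly in the coding sequence. Of the peak bases on METTL16-only genes, 73.9% and 79.4% were coding and 16% and 14.1% in the 3′ UTR, whereas coding sequence made up 48.4% of those transcripts. On eIF3b-only genes 71.2% and 69.4% of peak bases were coding and 19.9% and 24.9% in the 3′ UTR, against 46.6% coding in their transcripts. A peak touched the first exon in 31% and 29.3% of METTL16-only peaks and in 16.5% and 11.8% of eIF3b-only peaks. The start codon lay under 12.3% and 13.3% of METTL16-only and 8.01% and 5.32% of eIF3b-only peaks. Counted over every peak of a list, start-codon shares were 7.84% and 8.76% for METTL16 against 9.67% and 6.53% for eIF3b. First-exon shares were then 15.6% and 18.5% against 16.8% and 12.6%. The whole lists of the 2 proteins thus overlapped in both values, and only the sets were apart. The 2 sets differ in exon number as given above, and its part in the first-exon and start-codon shares of the sets was not tested. The peaks of METTL16-only genes averaged 60.9% and 60.2% GC and those of eIF3b-only genes 54% and 49.2%. A run of at least 6 G or C bases, as marked in the printed peaks, was present in 60% and 71.8% of METTL16-only and in 52.7% and 39.4% of eIF3b-only peaks, and in 70.8% to 79.3% of the peaks of shared genes.

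The letters ACAGAGA were searched on the transcript strand of each peak. They occurred in 2.58% and 2.76% of METTL16-only peaks, 4 and 5 peaks, with 95% Wilson intervals of 1.01% to 6.45% and 1.19% to 6.3%. In eIF3b-only peaks they occurred in 3.31% and 3.85%. Over all peaks of the 4 lists the shares were 3.31% and 3.27% for METTL16 and 4.07% and 4.49% for eIF3b. Each METTL16-only interval contained the share of its whole list.

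The eIF3a lists, from another subunit of the same complex were not used to choose the sets. The labels give an antibody against eIF3a itself for them, whereas the names of the deposited lists give Flag, so the antibody is uncertain. A peak in at least 1 of the 2 eIF3a lists was present in 84% of eIF3b-only genes (95% Wilson interval 81.7 to 86.1) and in 31.9% of METTL16-only genes (24.9 to 39.9). The share was 95.9% in genes of all 4 lists and 79.7% over all genes. The eIF3a lists differed between themselves. Replicate 1 held 78.6% and replicate 2 held 47.4% of the eIF3b-only genes, and 28.5% and 9.03% of the METTL16-only genes. The METTL16-only share was the lower one in each of the 5 length classes. In the shortest class an eIF3a peak was present in 67.2% of eIF3b-only and 23.9% of METTL16-only genes, and in the longest class in 94.7% and 35.3%. In the class next to the longest the shares were 82% (76.9 to 86.2) and 63.6% (35.4 to 84.8, n = 11), with overlapping intervals. The METTL16-only share depended on the rule for a peak in the METTL16 and eIF3b lists, while the eIF3a lists were kept whole. It was 69% with peaks of at least 4-fold alone, 69.4% with the 5000 best peaks per list and 52% with lists of equal length. The eIF3b-only share was higher, at 88.4%, 99.1% and 92.6% under the same settings. A stricter rule can make a gene METTL16-only by filtering out its eIF3b peak. Among the METTL16-only genes named above, GRIN2C and RNF144A had a peak in both eIF3a lists, and LINGO1, ARTN, RAX, CACNA1B, SHANK1 and BEND4 had none in either.

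By function, the genes were sorted into 32 families by symbol or fixed membership, and each share is given beside 1.44% METTL16-only and 10.6% eIF3b-only over all genes. Genes that encode C2H2 zinc finger proteins, many of them repressors of transcription, were 60 of 368 eIF3b-only (16.3%) and 3 of 368 METTL16-only. ZNF407 was followed by ZNF518A with 1199 and 2579 bases, ZNF83 with 1113 and 2159, and ZNF594 with 900 and 1021. The METTL16-only ones were HKR1, ZNF574 and ZNF627. Zinc finger genes share a repeated motif, so reads between relatives cannot be assigned with certainty. The share moved with the size of the whole set. It was 7.78% with lists of equal length, where 4.48% of all genes were eIF3b-only, 8.26% with the 5000 best peaks, against 6.51%, and 13.4% with peaks of at least 4-fold, against 10.9%. It was 27.1% with at least 200 bases, against 14.7%, and 42.1% with either replicate, against 24.5%. Left out in turn, METTL16 replicates 1 and 2 and eIF3b replicates 1 and 2 gave 25.3%, 29.9%, 34.7% and 32.4%, against 19.5%, 17.9%, 18.9% and 18.8% of all genes.

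Genes of the centrosome, centromere and cilium followed a similar pattern, with 19 of 85 eIF3b-only (22.4%) and CENPM alone METTL16-only. CEP95, CEP295 (571 and 1413 bases), CEP170 (300 and 392) and IFT88 (241 and 270), of the transport train in cilia, were among them. With lists of equal length the share was 10.8%, against 4.48% over all genes, and with peaks of at least 4-fold it was 11.9%, against 10.9%. Without METTL16 replicate 1 it was 34.9%, against 19.5%. Of the DNA repair and replication genes 7 of 47 (14.9%) were eIF3b-only and none METTL16-only, beside 10.6% and 1.44% over all genes. For a family of this size neither count is far from those shares. The 7 eIF3b-only genes were BRCA2, ERCC6, LIG4, MCM5, ORC2, RAD52 and WRN, with 90 to 451 bases in replicate 1 and 61 to 1021 in replicate 2. Kinesins and dyneins had 6 of 48 eIF3b-only genes (12.5%, near the share over all genes), DNAH1 and KIF14 among them, and KIF2A METTL16-only. Cadherins and protocadherins had 20 of 37 eIF3b-only genes, but 18 of these were PCDHG genes, which share their last exons, and their peaks were at 1 locus. CDH4 and CDH15 were the other 2. Counting each shared locus once, the eIF3b-only set held 1042 loci and the METTL16-only set 143.

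Other families held METTL16-only genes in small numbers. Histones, which package DNA, had 4 of 26 METTL16-only members (15.4%) and no eIF3b-only member. These were HIST1H2BC, HIST1H2BE, HIST1H2BN and HIST1H4E, with 59 to 174 bases in replicate 1 and 117 to 377 in replicate 2, and all are near-identical copies of other histone genes. Proteasome subunits, of the complex that degrades ubiquitin-tagged proteins, had 3 of 35 (8.57%), PSMB1 (90 and 326 bases), PSMB3 (118 and 561) and PSMD2 (151 and 151), and no eIF3b-only member. Plasma proteins made by the liver had 3 of 32 (9.38%), AFP (151 and 601), the complement factor CFB (121 and 331) and transferrin TF (60 and 447), with ITIH4 eIF3b-only at 241 and 121 bases. The highest folds on AFP, CFB and TF lay between 1.37 and 2.19. Among genes with symbols of neurotransmitter receptors and synaptic proteins 5 of 30 (16.7%) were METTL16-only, CHRNE, GRIN2C, GRINA, LINGO1 and SHANK1, and 4 were eIF3b-only, CHRNB1, GABRE, SYN3 and SYT15. GRINA was placed in this family by its symbol, and without it 4 of 29 (13.8%) were METTL16-only. Ion channels had 3 METTL16-only members of 40 (7.5%), CACNA1B, HCN2 and TRPC6, and 7 eIF3b-only members (17.5%), SCN1A (362 and 240 bases) among them. The homeobox genes divided between the sets as RAX and TLX1 against TLX2 and VAX2.

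The translation and RNA modification genes that the study is concerned with are given with their share in all 4 lists, beside 39.4% over all genes. Of 51 genes grouped as translation initiation factors 24 (47.1%) were in all 4 lists, and EIF5AL1 was METTL16-only with 61 and 270 bases. EIF2AK3, a kinase that restrains initiation under stress and not itself an initiation factor, was eIF3b-only with 91 and 181. EIF5AL1 is a close copy of EIF5A, so its reads are uncertain. No eIF3 subunit of 12 was in either set, and 6 (50%) were in all 4 lists. Of the 21 writers, erasers and readers of m6A 15 (71.4%) were in all 4 lists. METTL14, the partner of the main m6A methyltransferase, with 181 and 300 bases, and YTHDF2, a reader that shortens mRNA life, with 60 and 239, were eIF3b-only. The highest fold on YTHDF2 was 1.35 and 1.71. Chromatin regulators had 63 of 82 genes in all 4 lists and 4 in the eIF3b-only set, BRD8, KDM5D, KMT5B and SETD4. None of the 13 liver cancer stem cell markers with a peak was in either set, and 9 were in all 4 lists. Over all genes 1.44% were METTL16-only and 10.6% eIF3b-only. For families as small as these markers or the eIF3 subunits, having no member in a set is near those shares. Solute carriers (16 of 165 eIF3b-only, 9.7%), ubiquitin enzymes (25 of 236, 10.6%), RAB GTPases (4 of 50) and mitochondrial ribosomal proteins (5 of 48) were near the share over all genes.

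In the 3945 shared genes, the amount of peak sequence could be compared between the proteins. Before any centring the eIF3b lists held more, by a median of 1.49-fold per gene. After each list was centred on its median, limma found 0 genes (0%) with a Benjamini-Hochberg adjusted p under 0.05, and the lowest adjusted p was 0.205. At an unadjusted p under 0.05 there were 270 genes higher in METTL16 and 292 higher in eIF3b. After centring, both METTL16 values lay above both eIF3b values in 1219 genes (30.9%) and below them in 769 (19.5%). Without centring the split was 235 and 1860 genes, so a gene's direction is relative to the median gene of its list.

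Genes near both ends of this comparison are given here, picked by the same values, so the gap between their groups is not added evidence. RAD50, a DNA double-strand break repair protein, had 61 and 91 bases for METTL16 and 1984 and 2341 for eIF3b, a difference of 17.7-fold after centring (limma, log2 -4.15, SE 0.50, Benjamini-Hochberg adjusted p = 0.205). PLIN4, which coats lipid droplets, had 151 and 61 bases against 5189 and 4173, and HERC2, a very large ubiquitin ligase, 181 and 122 against 4029 and 2560. The groups were wide apart for each of these 3. CCDC93 (151 and 91 against 2884 and 2346), PABPC1L (122 and 151 against 2007 and 2067), ANKRD36C (121 and 61 against 2129 and 3293) and ANKRD18A (61 and 151 against 2366 and 2930) were also among the lowest. Near the other end, FAM43B had 268 and 536 bases for METTL16 and 90 and 60 for eIF3b (limma, log2 3.07, SE 0.52, Benjamini-Hochberg adjusted p = 0.205). ZNHIT1 (744 and 773 against 239 and 90), AZIN1 (658 and 656 against 209 and 61) and MAGED1 (449 and 955 against 179 and 120) followed. PGK1, a glycolytic enzyme, had 332 and 630 against 151 and 91, RAB3D 600 and 661 against 270 and 180, and NRARP, a Notch target, 269 and 269 against 91 and 91. For these 7 too, both METTL16 values were above both eIF3b values as deposited.

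In the shared genes the amounts of peak sequence differed by transcript length. In METTL16 replicates 1 and 2 the median bases per gene went from 329 and 419 in the shortest class to 602 and 452 in the longest. In eIF3b they went from 502 and 358 to 1411 and 1261. The median centred log2 difference, METTL16 minus eIF3b, was 0.65, 0.34, 0.12, -0.06 and -0.39 across the 5 length classes. Over the 4 pairings of a METTL16 with an eIF3b list it lay between 0.55 and 0.71 in the shortest class and between -0.74 and 0.03 in the longest. By GC the difference went from -0.22 in the lowest class, with list pairs from -0.80 to 0.36, to 0.48 in the highest, with list pairs from 0.22 to 0.69. These genes were in neither contrast set, and no test was made over genes, which share the same 4 libraries. Peaks covered 15.7% and 15.8% of the transcript bases of shared genes for METTL16 and 26.9% and 22.3% for eIF3b.

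**Figure D5:**
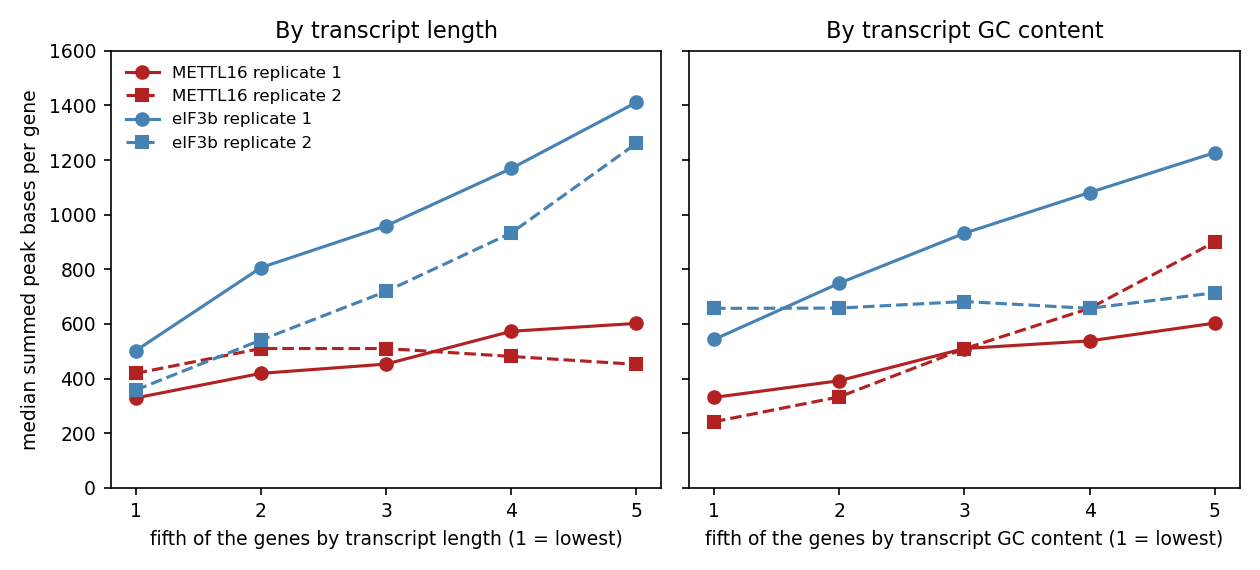
Median summed peak bases per gene (vertical axis, as deposited, not centred) in each list for the 3925 shared genes with a coding annotation, by 5 equal classes of transcript length (left) and of transcript GC content (right). In the longest class the eIF3b lists reach 1411 and 1261 bases and the METTL16 lists 602 and 452.

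Families among the shared genes are described beside 30.9% above and 19.5% below over all shared genes after centring, and 5.96% above and 47.1% below without it. Respiratory chain subunits, which make up the mitochondrial electron transport system and ATP synthase, had METTL16 above eIF3b in 5 of 7 genes after centring and in 4 of 7 without it. NDUFB11 had 149 and 473 bases against 60 and 89. Plasma proteins of the liver were above in 10 of 15 after centring and in 5 of 15 without it, where 1 was below. APOA1, the protein of high-density lipoprotein, had 780 and 958 against 660 and 480. Hepatocyte nuclear factors were above in 9 of 11 after centring, but in 2 of 11 without it, where 2 were below. All 5 shared histone genes were above after centring and none without it, where 1 was below. Ion channels were below in 6 of 8 with and without centring, SCN9A with 181 and 91 bases against 994 and 754 and TRPM7 with 573 and 362 against 2046 and 2108. ABC transporters were below in 7 of 13 after centring and 8 without it, RNA helicases in 10 of 26 and 17, and chromatin regulators in 21 of 63 and 42. The eIF3 subunits were above in 3 of 6 after centring and in 1 without it, where 3 were below. EIF3A, at 2518 and 2070 bases against 2578 and 2638, was among those above after centring and among those below without it. Its direction therefore rests on the centring. No gene of these families passed the adjusted test.

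Fold over input was compared in the same genes, as the mean fold of a gene's peaks weighted by their bases. The lists differed little, with a median of 0.944-fold for eIF3b over METTL16 per gene, and limma again called 0 of the 3945 genes (0%), with a lowest adjusted p of 0.383 after Benjamini-Hochberg adjustment. At an unadjusted p under 0.05 there were 150 genes higher in METTL16 and 165 higher in eIF3b. After centring, METTL16 lay above in 19.4% and below in 19.2% of genes. PARD3, a polarity protein, had a mean fold of 13.4 and 27 for METTL16 and 1.69 and 1.6 for eIF3b. MPP5, its partner in epithelial polarity, had 31.8 and 62.1 against 6.86 and 3.25, and MAP3K12, a stress kinase of neurons, 27.2 and 107 against 3.2 and 2.86. NKD1, an inhibitor of Wnt signalling, had 16.3 and 25.8 against 4.94 and 3.55, and PCSK7, a protein convertase, 221 and 45.3 against 4.85 and 2.76. At the eIF3b end were MC1R, the melanocortin receptor, at 3.68 and 3.03 against 26.5 and 21.1, ATP2A2, the calcium pump of the endoplasmic reticulum, at 4.48 and 4.8 against 30.7 and 21, and ZADH2 at 2.89 and 4.17 against 17.2 and 14.7. CREB3L3, a liver transcription factor, had 7.02 and 4.39 against 28.7 and 30.7, and MAPK8IP3 5.75 and 6.06 against 33.8 and 18.5. The groups did not overlap for any of these 10, which were picked by these same values, so the gap is not added evidence. The median centred difference of fold by length class ran from 0.09 to -0.08 on the log2 scale, against 0.65 to -0.39 for bases.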

How the data were processed

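The comparison used the 4 deposited peak lists of the METTL16 and eIF3b RIP samples, 2 biological replicates each, and for 1 check the 2 eIF3a lists. Per the labels, STAR was the authors' aligner and GRCh38 their build. Per the study's methods, exomePeak was run with its default settings. Versions, gene annotation and which input each list was called against are not given in the sources used here. The deposited block sizes in bases, p-values and fold enrichment (a ratio of RIP over input) are the authors' values, and their log10 of p and of adjusted p was used as a score. Sequencing depth is unknown.

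Block sizes were summed per gene name. Names matched a current GENCODE release 44 symbol for 9550 genes and an older one for 397, and 54 did not match. Length and GC came from the canonical transcript, with order-statistic 95% intervals, and shares carry Wilson intervals for counting error only. In genes of all 4 lists, log2 summed bases and log2 mean fold were centred per list and compared with limma 3.58.1 (R 4.3.3) with Benjamini-Hochberg adjustment, checked on simulated data. Lists of equal length, stricter peaks, another gene model and leaving out each replicate were tried as alternatives.

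The contrast sets and the 32 gene families were chosen with earlier results of these data known. Named genes were the 12 with the largest smaller-of-2 summed bases and the 8 with the largest smaller-of-2 highest fold in each set, the 8 (bases) and 5 (fold) at each end of moderated t in shared genes, and family members in a set. Cytosolic ribosomal protein genes and some genes this rule chose are not reported here. Genes of chromosomes 8 and Y were left out of the printed stretches. The main fit did not pair samples by replicate number, and whether they were paired cannot be told from these lists. Deviations of same-numbered lists correlated at -0.218 for bases and -0.00231 for fold. Fits with a replicate block are given below.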

Additional observations from a re-analysis of the deposited data

How the results depend on the processing

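Across 11 other settings of the sets, METTL16-only transcripts stayed shorter in median than eIF3b-only ones in 11 of 11 and higher in GC in 11 of 11. Set sizes moved more. METTL16-only and eIF3b-only genes numbered 284 and 324 with the 5000 best peaks per list, 375 and 393 with lists of equal length, 861 and 2447 when either replicate sufficed, and METTL16-only genes 90 when at least 200 bases were required. Left out in turn, METTL16 replicates 1 and 2 and eIF3b replicates 1 and 2 gave 738, 267, 578 and 233 METTL16-only and 1931, 1681, 1760 and 1751 eIF3b-only genes. Shared genes were 1247 with peaks of at least 4-fold, 1487 with the 5000 best, 2503 with at least 200 bases, and 4034 to 4812 without 1 list. Median length of METTL16-only genes was 2802 at 4-fold and 2564 with lists of equal length (1970 to 2369 without 1 list), and of eIF3b-only genes 4424 at 4-fold, 4418 with at least 200 bases and 3584 with either replicate (3686 to 4347 without 1 list). Median GC of METTL16-only genes was 58% at 4-fold (49.8 to 55.9 without 1 list), and of eIF3b-only genes 46.1% at 4-fold, 46% with the 5000 best and 45.1% with at least 200 bases (42.7 to 46 without 1 list). The eIF3a lists were left uncut in every setting. In METTL16-only genes the share with an eIF3a peak was 69% at 4-fold, 69.4% with the 5000 best and 52% with lists of equal length. It was 54.4% with at least 200 bases (31 to 54 without 1 list). In eIF3b-only genes it was 88.4%, 99.1%, 92.6% and 97.2% in the same order and 70.9% with either replicate (71.9 to 88.9 without 1 list). The cause of these shifts was not tested beyond the settings' own construction, such as fewer peaks or fewer lists.

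For shared genes, limma called 6 genes higher in eIF3b for bases at 4-fold, and for fold 5 genes higher in METTL16 without METTL16 replicate 1, 2 without METTL16 replicate 2 and 0 without either eIF3b list. The 5 were GDF7, MAP3K12, PARD3, YIPF2 and ZNFX1, and the 2 were PCSK7 and ZNF8, of which GDF7, YIPF2, ZNFX1 and ZNF8 were chosen after their values were seen. With the replicate block, 3 genes were called higher in METTL16 for fold (MAP3K12, PARD3 and PCSK7) and 0 for bases. With the numbers crossed, chosen after seeing the data, 0 genes were called for either measure. Of 368 alternative values 295 kept their direction and side of the threshold, stayed within their error or, for counts, stayed near the main value. Counts had no error, and 741 against 1064 eIF3b-only genes at 4-fold passed as near. For set sizes, set medians, eIF3a shares and numbers of genes called, 82 values stayed and 52 moved. The rest, 213 that stayed, 12 moved and 9 stronger, came from the zinc finger and centrosome families and genes picked for extreme differences. Reversal, found 0 times, applies only to values with a sign, so it does not bear on the sets.

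Limits were that 2 lists per protein allow no exact p under 0.333, that peaks carry no read counts, and that a gene without a peak in a list cannot be told apart from one whose signal fell short of the caller's threshold.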
